A study of Mus musculus with 35 samples.

Results

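Whole lungs of mice of the control genotype, taken 2 days after treatment with naphthalene, were compared with whole lungs of untreated mice of the same genotype and the same day label. The members were chosen by label and not by measured values. They are 3 naphthalene libraries and 3 untreated libraries, 6 of the 35 libraries of the series, and every gene that passed a filter on low counts, which kept 20606 of the 57186 genes in the table. Mice of both groups were RORaf/f, so that the gene of the nuclear receptor RORα (Rora) carried loxP sites in treated and untreated animals alike, and the label of this genotype names no Cre recombinase. The design text gives the age as 14 days, when mouse lungs are still forming alveoli, and gives no separate age for each day label. The dose and the route of naphthalene were not given in the sources used here.

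Groups used for comparison were naphthalene and untreated lungs of RORaf/f mice with the day labels 5 and 7, and naphthalene and untreated lungs with the day label 2 from RORaf/fIl7riCre mice, called KO in the series, with 3 libraries in each. In KO mice a Cre expressed from the Il7r locus acts on the loxP sites in cells that express Il7r or descend from cells that did, so RORα is not deleted throughout the lung. Each library holds RNA of a homogenised whole lung. Fewer cells of a type and less RNA per cell cannot be told apart in such data. The labels do not state that each library is a separate animal, so p-values measure the spread between these libraries, which may be technical.

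Naphthalene is harmless until it is oxidised. In the mouse lung this is done mainly by the cytochrome P450 enzyme CYP2F2 of club cells, the secretory cells of the conducting airways, and the epoxides and quinones formed bind to protein and use up glutathione. Club cells die within hours and are shed, neighbouring ciliated cells flatten and spread over the bared surface, and the epithelium is later rebuilt from surviving club cells near neuroendocrine bodies and, in the trachea, from basal cells. New ciliated cells arise in ordered steps: GEMC1 (gene Gmnc) and multicilin (Mcidas) start the programme, the deuterosome stage amplifies centrioles, and FOXJ1 with RFX factors drives the genes of the beating cilium.

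The naphthalene libraries held 18.9, 17.4 and 16.1 M counts and the untreated libraries 20, 18 and 17.8 M (M, mega), so that 1 read corresponds to 0.049 to 0.063 CPM, the count per M counts of a library. Genes that define alveolar, capillary, fibroblast and airway cells were read in every library, as the label lung requires. Library names carry a letter that the labels do not explain, a in all 3 naphthalene libraries, k in untreated replicates 1 and 2 and n in untreated replicate 3, so treatment and letter cannot be told apart. Among untreated mice of both genotypes, 563 genes (2.73% of those tested) differed between letters k and n, 149 higher (0.723%) and 414 lower (2.01%) in k libraries. Of the 774 genes called below, 20 were among them, and 574 of the 774 were called against the k libraries and 244 against the n library. Mitochondrial transcripts made up 1.65%, 1.66% and 1.63% of counts in naphthalene libraries, against 1.23%, 1.12% and 0.752% in untreated libraries, a separation that reaches the smallest p the design allows (two-sided exact permutation test, p = 0.1).

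Of the 20606 genes, 774 (3.76%) passed an adjusted p of 0.05 in edgeR's quasi-likelihood test, 530 higher (2.57%) and 244 lower (1.18%) after naphthalene. The change was at least 2-fold for 423 of the higher and 175 of the lower genes, and the median log2 change over all genes tested was -0.04. Over all genes tested, 44.5% had a log2 change above 0, and 11441 of the 20606 had one below 0. Leaving out 1 library at a time gave between 468 calls, without naphthalene replicate 1, and 774 calls, without untreated replicate 3, and 479 without untreated replicate 1. Genes called lower made up 0.571% of the counts of naphthalene lungs and 1.86% of those of untreated lungs, and genes called higher made up 2.79% of the counts of naphthalene lungs and 1.27% of those of untreated lungs. Below, log2 changes are naphthalene minus untreated, with their standard error, and a gene is said to have risen or fallen only where it passed this test.

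**Figure D1:**
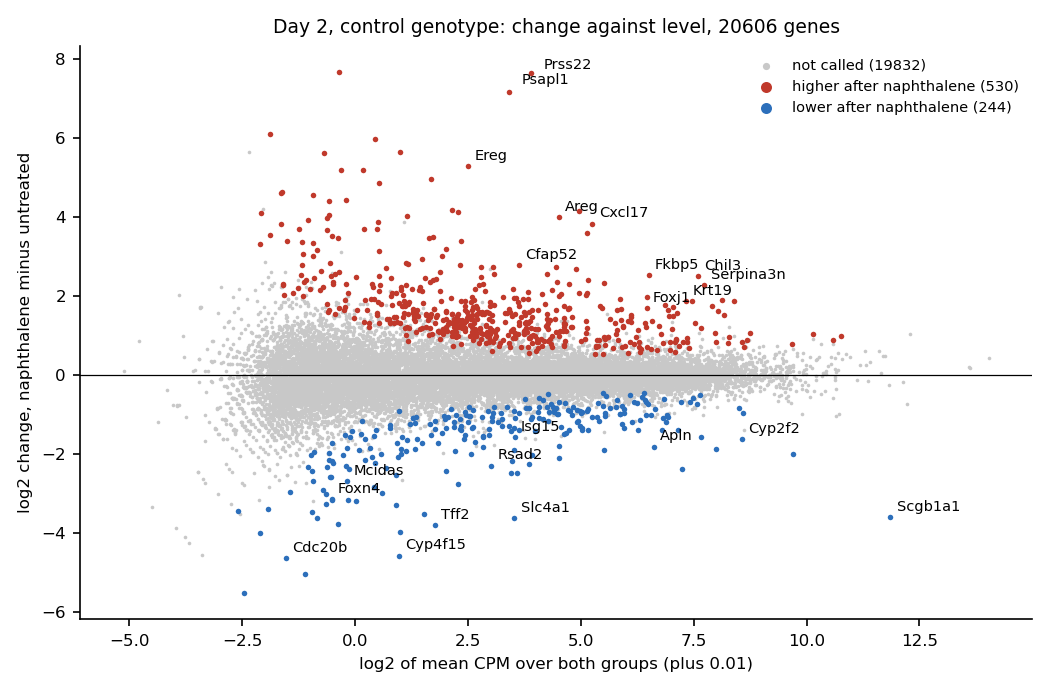
Log2 change, naphthalene minus untreated, against the log2 of the mean CPM over the 6 libraries for the 20606 genes tested in control mice at day 2. Red points are the 530 genes called higher, blue points the 244 called lower and grey points the 19832 genes not called. Scgb1a1 stands apart at the right as the most abundant gene called lower.

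Outside the gene lists taken up below, genes of scattered function were called, some of them close in function to a list. Of these genes, 10 are given here from those that averaged 5 CPM or more in 1 group and did not overlap between groups. Kcnt1, a sodium-activated potassium channel, had 9.04, 13.2 and 5.39 CPM in naphthalene lungs, against 0.536, 0.465 and 0.57 CPM in untreated lungs. Ghrl, which encodes the peptide hormone ghrelin, had 6.54, 7.91 and 5.65 CPM after naphthalene, against 0.925, 0.698 and 0.83 CPM without it. All naphthalene libraries lay above all untreated libraries for both genes, with log2 changes of 4.12 ± 0.69 (adjusted p = 0.00032) and 3.02 ± 0.32 (adjusted p = 2.93e-07). Tnfrsf9, a costimulatory receptor of T cells, rose by 3.46 ± 0.43 on the log2 scale, Atg9b, a lipid scramblase of the autophagy machinery, by 3.38 ± 0.37, and Doc2b, a calcium sensor of vesicle fusion, by 3.48 ± 0.64. On the other side, Wif1, a secreted inhibitor of WNT signals, had 6.86, 5.55 and 5.27 CPM in naphthalene lungs, against 23.8, 32.1 and 17.2 CPM in untreated lungs. Its log2 change was -2.04 ± 0.32 (adjusted p = 0.000139). Mex3a, an RNA-binding protein, changed by -2.18 ± 0.39, A2m, a protease inhibitor of plasma, by -2.43 ± 0.45, Ptpn5, a tyrosine phosphatase, by -2.01 ± 0.49, and Nr4a3, an orphan nuclear receptor, by -2.25 ± 0.40. Ptpn5 lost its call without naphthalene replicate 1 or 2 (adjusted p up to 0.102). The groups did not overlap in these 10 genes, a condition of their choice. Over all genes tested, 10.7% had every naphthalene library above every untreated library and 9.76% had every naphthalene library below.

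Several early regulators of multiciliogenesis fell at day 2 after naphthalene. Of 18 regulators, all tested, 5 fell and 1 rose, with a median log2 change of -0.33. Foxn4, a forkhead factor of early multiciliated cells, had 0.106, 0.165 and 0.127 CPM in naphthalene lungs, against 1.22, 1.57 and 0.933 CPM in untreated lungs. Mcidas, which encodes multicilin, had 0.319, 0.11 and 0.254 CPM after naphthalene, against 2.29, 1.28 and 0.985 CPM without it. Neither gene overlapped between the groups, and the log2 changes were -3.15 ± 0.54 (adjusted p = 0.000383) and -2.70 ± 0.55 (adjusted p = 0.00217). Cdc20b, expressed in the deuterosome stage, had 1 read in the 3 naphthalene libraries together and 37 reads in the 3 untreated libraries. After scaling, the ratio of untreated to naphthalene lungs was 34.3, with an exact 95% interval of 5.78 to 1390 that covers counting error only. Gmnc fell by 2.15 ± 0.52 on the log2 scale and Mycl, a member of the MYC family, by 1.17 ± 0.25. Ccna1, a cyclin chosen for its difference between days and not as a list member, had 0.266, 0.604 and 0.381 CPM in naphthalene lungs, against 2.14, 1.63 and 1.87 CPM in untreated lungs (log2 change -2.15 ± 0.42, adjusted p = 0.00131). The call of Gmnc was lost without untreated replicate 1 and without naphthalene replicates 2 and 3, with adjusted p up to 0.088, and the other calls held in each of the 6 fits that left out 1 library. Against the n library alone Foxn4 and Ccna1 passed, while Gmnc, Mcidas, Cdc20b and Mycl did not (adjusted p = 0.0723, 0.127, 0.103 and 0.0782).

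Transcripts of the finished cilium went the other way. Foxj1, the factor that drives cilium genes, was the regulator that rose, with 132, 119 and 150 CPM in naphthalene lungs, against 41.9, 51.3 and 32.8 CPM in untreated lungs (log2 change 1.68 ± 0.38, adjusted p = 0.00595). Of 32 genes of motile cilium structure, 19 rose and none fell, 31 had a log2 change above 0, and the median was 1.03. The summed level of the 32 genes was 913 to 1000 CPM in naphthalene lungs and 699 to 729 CPM in untreated lungs. Tppp3, an abundant marker of ciliated cells, was not called. It had 342 to 393 CPM after naphthalene and 342 to 384 CPM without it (log2 change 0.02 ± 0.21). Cfap52, a protein inside the doublet microtubules, had 23.5, 20.1 and 21.6 CPM after naphthalene, against 3.65, 2.56 and 3.21 CPM without it, the largest change of the list at 2.78 ± 0.28 (adjusted p = 8.02e-08). The lowest naphthalene library of Cfap52 stood well above the highest untreated library. Dnah5, a heavy chain of outer dynein arms, had 20.6, 23.6 and 15.7 CPM in naphthalene lungs, against 5.84, 3.32 and 10.7 CPM in untreated lungs. Other genes that rose encode the outer-arm chain Dnah9, the intermediate chain Dnai2, the radial spoke proteins Rsph1, Rsph4a and Rsph9, the central apparatus proteins Spag6l and Spag16, the tektin Tekt4, the ruler protein Ccdc40, and Cfap126 and Cimap3. Their log2 changes lay between 0.93 ± 0.19 for Dnai2 and 1.55 ± 0.27 for Rsph4a.

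The count of 19 cilium genes depended on the untreated libraries used. It was 22 against the k libraries and 5 against the n library, and leaving out 1 library at a time gave 13 to 22. Calls were lost for Ccdc113 and Drc1 without untreated replicate 2 (adjusted p = 0.0828 and 0.071), for Cfap53 without untreated replicate 1 or 2 (up to 0.0814), and for Dnah6 without naphthalene replicate 1 or untreated replicate 1 or 2 (up to 0.0855). Tekt1 lost its call without naphthalene or untreated replicate 1 or 2 (up to 0.114), and Zmynd10 in every fit but the one without untreated replicate 3 (up to 0.217). Cfap53 also differed between letters k and n, with 1.51 and 1.22 CPM in the k libraries and 4.04 CPM in the n library, all below the 6.70, 7.86 and 5.27 CPM of naphthalene lungs.

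**Figure D2:**
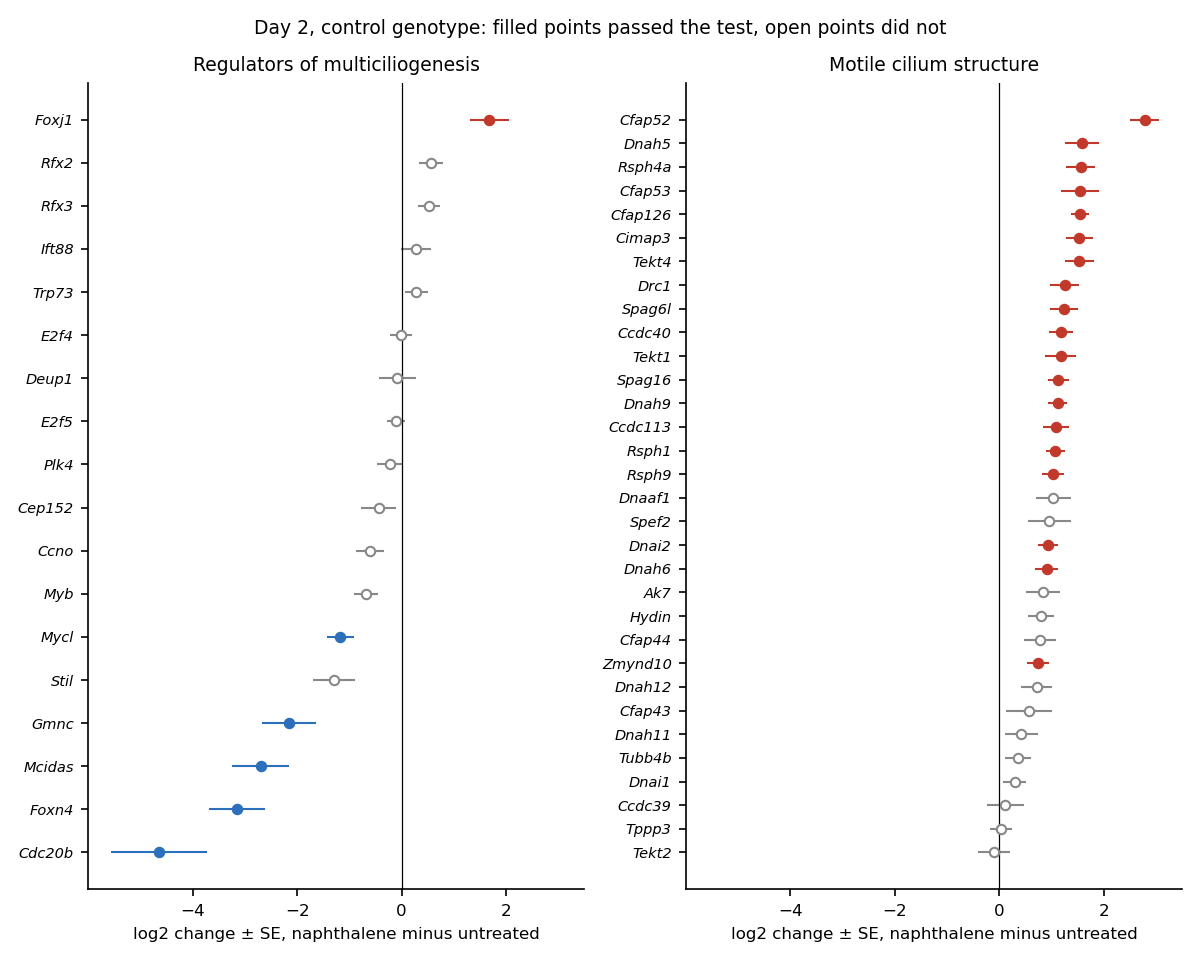
Log2 change ± standard error, naphthalene minus untreated, of 18 regulators of multiciliogenesis and 32 genes of motile cilium structure in control mice at day 2. Filled points passed an adjusted p of 0.05 (red higher, blue lower). Cdc20b, Foxn4, Mcidas, Gmnc and Mycl lie to the left of 0, while Foxj1 and 19 structural genes lie to the right.

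Club cell genes changed unequally. Of 17 tested genes of club cell secretion and defence, 5 fell and 1 rose, with a median log2 change of -0.12. The secretoglobin Scgb1a1, the main secretory product of club cells, had 740, 574 and 376 CPM in naphthalene lungs, against 6860, 7560 and 6120 CPM in untreated lungs (log2 change -3.60 ± 0.29, adjusted p = 1.21e-09). Scgb3a2, another secretoglobin, had 177, 113 and 34.5 CPM after naphthalene, against 412, 443 and 350 CPM without it, a change of -1.89 ± 0.36. Naphthalene libraries stood below untreated libraries in both, and the replicates of naphthalene lungs were widely spread for Scgb3a2. Chad, Lypd2 and Gabrp fell by 2.50 ± 0.37, 2.48 ± 0.44 and 1.12 ± 0.23 on the log2 scale. Cbr2, a carbonyl reductase abundant in club cells, did not pass the test, with 1650, 1440 and 1170 CPM in naphthalene lungs and 1800, 2010 and 1630 CPM in untreated lungs (log2 change -0.35 ± 0.24). The stress regulator Nupr1, which the list also holds, was the member that rose, by 0.84 ± 0.17.

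The spread between naphthalene lungs was widest for secreted antimicrobial genes of the same list. Bpifa1, which encodes the airway lining protein SPLUNC1, had 24.7, 15.3 and 0.888 CPM in naphthalene lungs, against 2.43, 2.73 and 1.30 CPM in untreated lungs, so that the groups overlapped (log2 change 2.67 ± 1.01, adjusted p = 0.186). Scgb3a1, a secretoglobin of the upper airways, had 68.7, 37.6 and 7.68 CPM after naphthalene, against 54.0, 56.5 and 89.3 CPM without it, and the groups again overlapped. Naphthalene replicate 3 was the lowest of the 6 libraries for Bpifa1, Scgb3a1, Scgb3a2 and Scgb1a1.

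Among 22 enzymes of naphthalene bioactivation and xenobiotic oxidation, 4 rose and 2 fell, with a median log2 change of 0.08. Cyp2f2, the enzyme that activates naphthalene, had 228, 179 and 148 CPM in naphthalene lungs, against 576, 605 and 537 CPM in untreated lungs (log2 change -1.63 ± 0.28, adjusted p = 0.000364). Its fall was smaller than that of Scgb1a1, and the difference between the 2 genes was not tested. Cyp2s1, a P450 of airway epithelium, had 210, 195 and 201 CPM after naphthalene, against 59.9, 64.3 and 59.0 CPM without it (log2 change 1.72 ± 0.20, adjusted p = 1.09e-06). Cyp2b10, a P450 that the receptor CAR induces in mouse liver, rose by 1.92 ± 0.33, and its libraries did not overlap. Cyp4b1 and Sult1a1 passed with smaller changes of 0.69 ± 0.18 and 0.95 ± 0.28. Cyp4b1 lost its call in every fit but the one without naphthalene replicate 2 (adjusted p up to 0.141), and Sult1a1 without replicate 1 or 2 of either group (up to 0.278). Cyp4f15, a P450 outside this list that was chosen for its difference between days, had 0.319, 0.0549 and 0.0634 CPM in naphthalene lungs, against 3.21, 2.09 and 5.96 CPM in untreated lungs (log2 change -4.58 ± 0.57, adjusted p = 3.78e-06). In the aryl hydrocarbon receptor battery 1 of 10 tested genes rose, Cyp1b1 by 0.98 ± 0.28, a call that remained in only 1 of the 6 fits without a library, that without naphthalene replicate 2 (adjusted p up to 0.147).

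Genes of the NRF2 response to electrophiles moved upward where they moved. Of 24 targets, 7 rose and none fell, and the median log2 change was 0.34. Gpx2, a glutathione peroxidase of epithelia, had 23.8, 26.3 and 19.4 CPM in naphthalene lungs, against 5.11, 5.35 and 5.81 CPM in untreated lungs. Akr1b8, an aldo-keto reductase, had 27.2, 28.6 and 29.4 CPM after naphthalene, against 8.67, 7.50 and 4.46 CPM without it. Both sets of libraries were far apart, with log2 changes of 2.09 ± 0.29 (adjusted p = 1.81e-05) and 2.04 ± 0.23 (adjusted p = 5.2e-07). Gclc, the catalytic subunit of the enzyme that limits glutathione synthesis, rose by 1.03 ± 0.19 and Srxn1, which reduces oxidised peroxiredoxins, by 0.84 ± 0.19. Nqo1, a textbook target that detoxifies quinones, had 4.63, 5.00 and 4.12 CPM in naphthalene lungs and 3.80, 3.26 and 3.32 CPM in untreated lungs, without overlap but short of the threshold (log2 change 0.41 ± 0.28, adjusted p = 0.634). Slc7a11, Ggt1 and Me1 passed with changes of 1.33 ± 0.38, 1.42 ± 0.39 and 0.53 ± 0.15. Slc7a11 lost its call in every fit but the one without naphthalene replicate 2 (adjusted p up to 0.169), Me1 in every fit but the one without untreated replicate 1 (up to 0.172), and Ggt1 without untreated replicate 1 or 3 or naphthalene replicate 2 or 3 (up to 0.246). Of 22 tested glutathione transferases 1 rose and 1 fell. Gsto1 had 302, 268 and 265 CPM in naphthalene lungs, against 77.2, 95.2 and 53.9 CPM in untreated lungs (log2 change 1.88 ± 0.25, adjusted p = 1.34e-05), and Gsta2 fell by 2.03 ± 0.54 at about 1 CPM, a call lost without replicate 1 of either group, untreated replicate 2 or naphthalene replicate 3 (adjusted p up to 0.138).

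The promoter of Srxn1 is shown as the window of a called NRF2 target that holds the core of the antioxidant response element, TGACNNNGC on either strand. The sequence is from RefSeq, build GRCm38.p6, plus strand, chr2:152105274-152105573, and runs from 250 bases before to 50 bases after the start of the gene. Capitals mark the match, which begins 28 bases after the start of the gene and not before it.
Srxn1: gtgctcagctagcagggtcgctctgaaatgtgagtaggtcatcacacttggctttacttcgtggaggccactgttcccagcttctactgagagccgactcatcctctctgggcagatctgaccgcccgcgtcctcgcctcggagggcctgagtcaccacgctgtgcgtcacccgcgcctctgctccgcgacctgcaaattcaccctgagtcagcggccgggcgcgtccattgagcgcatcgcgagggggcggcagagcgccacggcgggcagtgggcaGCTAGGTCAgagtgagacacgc
Windows were at hand for 20 of the 24 targets and 8 of them held a match, among them 3 of the 6 that were called. Of all 27025 promoter windows searched, 12.5% held one. A match describes the letters of the window and not binding.

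Most keratins and squamous genes rose after naphthalene. Of 18 tested members, 12 rose and 1 fell, 17 had a log2 change above 0, and the median was 1.72. Krt8, a keratin of simple epithelia, had 197, 181 and 247 CPM in naphthalene lungs, against 78.1, 81.8 and 50.5 CPM in untreated lungs. Its partners Krt18 and Krt19 rose with it, by 1.36 ± 0.23 and 1.87 ± 0.35 on the log2 scale, beside 1.57 ± 0.24 for Krt8 itself. Cldn4, a tight junction claudin, had 26.4, 33.7 and 36.8 CPM after naphthalene, against 5.40, 6.69 and 4.30 CPM without it (log2 change 2.56 ± 0.36, adjusted p = 2.55e-05). Sprr1a, a precursor of the cornified envelope, rose by 4.03 ± 0.60. The keratins of basal and stratified epithelium were at low levels. Summed over 3 libraries, Krt4 had 115 reads in naphthalene lungs and 3 in untreated lungs. Krt17 had 53 reads in naphthalene lungs and 2 in untreated lungs, and Krt14 had 33 reads in naphthalene lungs and 3 in untreated lungs. The ratios of naphthalene to untreated lungs were 41.4 for Krt4 (exact 95% interval 13.8 to 204), 28.6 for Krt17 (7.54 to 243) and 11.9 for Krt14 (3.73 to 60.6).

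The number of keratin and squamous genes called was 10 against the k libraries and 8 against the n library, and it was between 10 and 12 where 1 library was left out. Krt5, the defining basal keratin, passed with 68 reads in naphthalene libraries against 4 in untreated libraries, and its call was lost without untreated replicate 2 or 3 or naphthalene replicate 2 (adjusted p up to 0.072). Krt14 lost its call in every fit but the one without naphthalene replicate 1 (up to 0.142), Lgals3 without untreated replicate 3 (0.0593), and Sfn without untreated replicate 1 or naphthalene replicate 3 (up to 0.0973). Krt23, the member that fell, lost its call in every fit but the one without untreated replicate 3 (up to 0.214). Trp63, the basal cell factor p63, had 56 reads in naphthalene libraries and 45 in untreated libraries and was not called, with a log2 change of 0.42 ± 0.45. Krt4 is also expressed in the oesophagus, and of the other oesophageal markers Sprr3 had no read in either group, Krt13 had 12 reads in naphthalene libraries against 6 in untreated libraries, and Krt6a had 14 in naphthalene libraries against 0 in untreated libraries. The part of tissue attached to the lung in these changes was not tested.

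Of 12 tested EGF receptor ligands and receptors, 4 ligands rose. Areg, which encodes amphiregulin, had 43.9, 42.5 and 41.9 CPM in naphthalene lungs, against 2.39, 2.15 and 3.53 CPM in untreated lungs. Ereg, which encodes epiregulin, had 11.3, 10.7 and 11.2 CPM after naphthalene, against 0.39, 0.116 and 0.311 CPM without it. The libraries of each group lay close together, and the log2 changes were 3.99 ± 0.41 (adjusted p = 1.04e-07) and 5.28 ± 0.51 (adjusted p = 6.22e-08). Nrg1, a neuregulin that acts through ERBB3 and ERBB4, rose by 2.47 ± 0.30. Hbegf rose by 0.65 ± 0.16, a call lost without replicate 1 of either group or untreated replicate 3 (adjusted p up to 0.0698). None of 13 tested genes of MAP kinase feedback, which respond to such ligands in many cells, passed the test, and their median log2 change was -0.17.

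Several mucin and neuroendocrine genes were called, and 1 gene of ion transport. Of 15 tested mucin and goblet cell genes, 4 rose and 1 fell, 9 had a log2 change below 0, and the median was -0.22. Muc4, a membrane-bound mucin, had 61.9, 65.3 and 44.1 CPM in naphthalene lungs, against 15, 13 and 12.7 CPM in untreated lungs (log2 change 2.07 ± 0.23, adjusted p = 5.2e-07). Agr2, a disulfide isomerase needed for mucin folding, rose by 2.83 ± 0.55. Gcnt3, a mucin glycosyltransferase, and Slc26a4, the anion exchanger pendrin, each had 32 reads in naphthalene libraries and 1 in untreated libraries, a ratio of 34.6 with an exact 95% interval of 5.77 to 1410. Tff2, a trefoil peptide, had 0.904, 0.33 and 0.0634 CPM after naphthalene, against 6.57, 7.27 and 5.24 CPM without it, and its call was lost without naphthalene replicate 2 or 3 (adjusted p up to 0.0656). Among 12 tested neuroendocrine genes, with a median of 0.17, 3 rose: Calca, which encodes the peptide CGRP, by 3.18 ± 0.42, Scg2, a granin of secretory granules, by 3.96 ± 0.80, and Uchl1, a deubiquitinase, by 1.19 ± 0.21. Calca had 8.19, 6.76 and 6.79 CPM in naphthalene lungs, against 0.487, 0.698 and 1.19 CPM in untreated lungs. Of 15 tested genes of ion and water transport, the ionocyte factor Ascl3 rose, by 2.19 ± 0.58, and lost its call without replicate 1 of either group, untreated replicate 2 or naphthalene replicate 3 (adjusted p up to 0.142). Foxi1, also a factor of ionocytes, had 0 reads in naphthalene and in untreated libraries and was not tested.

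**Figure D3:**
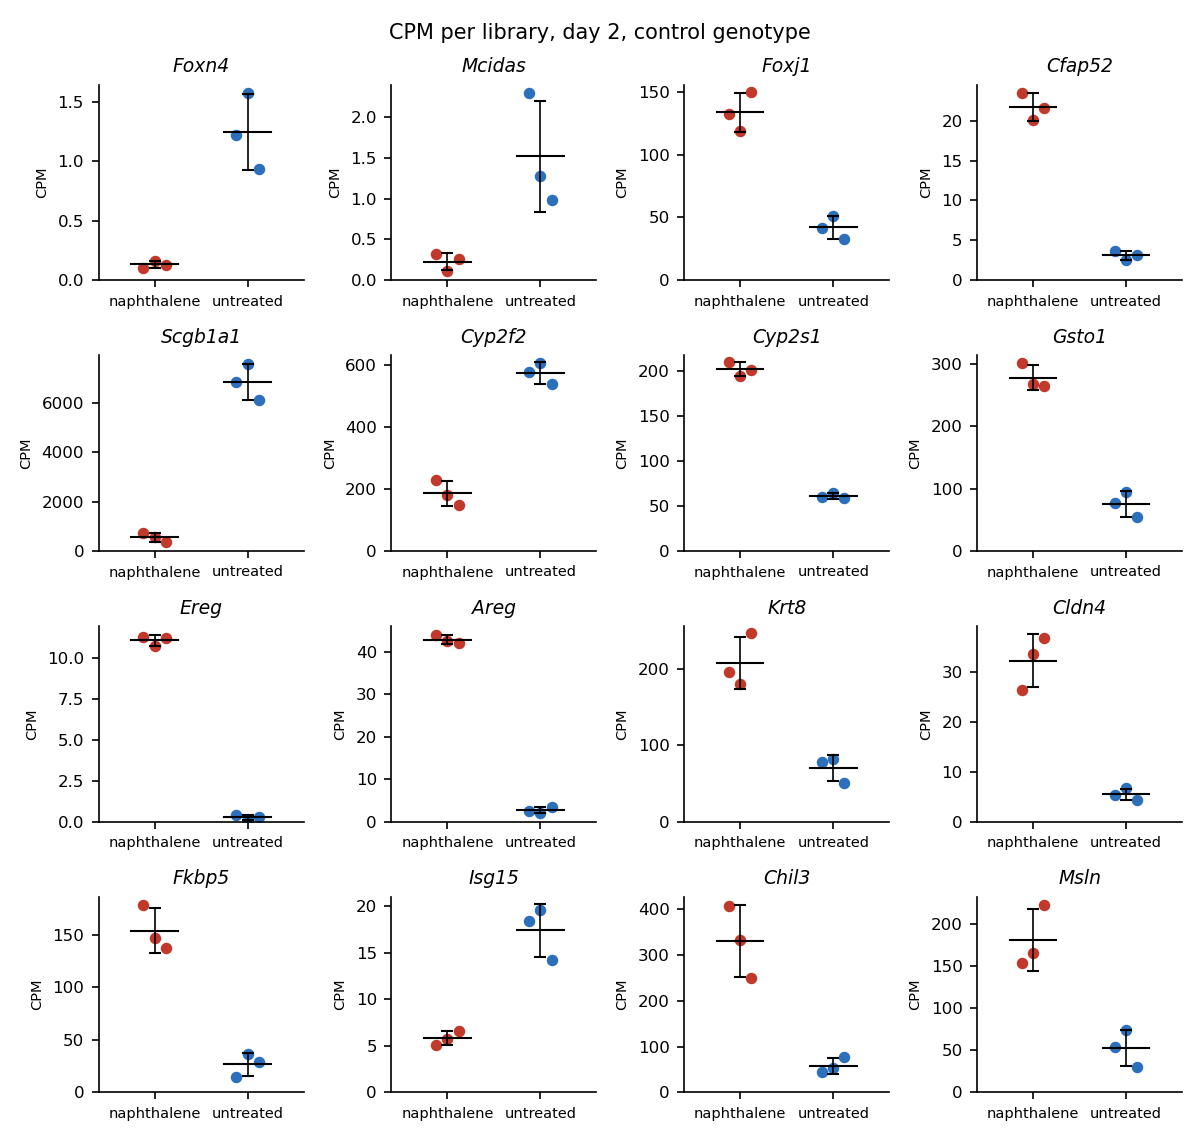
CPM of 16 genes in each naphthalene library (red) and each untreated library (blue) of control mice at day 2. Bars are the mean and the SD over 3 libraries, and each axis starts at 0. The groups do not overlap for any of the 16 genes.

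Glucocorticoid targets included several large increases. Of 14 genes, 4 rose and 1 fell, with a median log2 change of 0.61. Fkbp5, a chaperone of the glucocorticoid receptor, had 178, 147 and 137 CPM in naphthalene lungs, against 14.9, 36.5 and 29.2 CPM in untreated lungs (log2 change 2.52 ± 0.48, adjusted p = 0.00118). Mt1, a metallothionein, had 81.6, 83.7 and 90.1 CPM after naphthalene, against 22.9, 26.2 and 32.5 CPM without it (log2 change 1.65 ± 0.37). The groups were separate in both. Zbtb16 and Hif3a, a pair of transcription factors, rose by 1.96 ± 0.53 and 1.66 ± 0.40. Dusp1, a MAP kinase phosphatase that is also an immediate early gene, fell by 0.98 ± 0.27. Hif3a lost its call without replicate 1 of either group (adjusted p up to 0.0973), Zbtb16 without replicate 1 or 2 of either group (up to 0.174), and Dusp1 in every fit but the one without untreated replicate 1 (up to 0.19). The count of 5 called targets was 1 against the n library and between 2 and 5 where 1 library was left out.

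Of 18 listed immediate early genes, Dusp1 and Nr4a1 were called, both lower. Nr4a3, which fell as given above, was not a member of this list. Nr4a1 had 58.4, 49.1 and 38.6 CPM in naphthalene lungs, against 116, 133 and 520 CPM in untreated lungs, where replicate 3 stood far above the rest. Its call was lost without untreated replicate 3 and without any 1 naphthalene replicate (adjusted p up to 0.383). Of the 18 genes, 9 differed between letters k and n. Among 20 p53 targets 2 rose and 2 fell. Cdkn1a, the cell cycle inhibitor p21, had 366, 380 and 370 CPM after naphthalene, against 90.2, 172 and 70.3 CPM without it (log2 change 1.75 ± 0.50), with its call lost in every fit but the one without untreated replicate 2 (adjusted p up to 0.188). Tnfrsf10b, a death receptor for TRAIL, fell by 1.33 ± 0.24 in libraries that did not overlap, and this call held in each of the 6 fits. Perp rose by 1.10 ± 0.26 and Plk2 fell by 1.40 ± 0.38. Perp lost its call without naphthalene replicate 1 or untreated replicate 3 (up to 0.0905), and Plk2 without untreated replicate 3 or any 1 naphthalene replicate (up to 0.264). Of 20 genes of the unfolded protein and integrated stress response, Nupr1 rose, and of 10 heat shock genes and 15 genes of hypoxia and glycolysis none was called.

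Among the listed genes of mitosis and DNA replication 1 was called. Of 22 mitosis genes 1 fell, 21 had a log2 change below 0 and the median was -0.77. The called gene was Cenpa, the histone variant of centromeres, with 16.3, 12.2 and 14.7 CPM in naphthalene lungs, against 26.6, 28.9 and 27.8 CPM in untreated lungs (log2 change -0.94 ± 0.23, adjusted p = 0.0138, and 0.104 without naphthalene replicate 2). Mki67 had 6.33, 6.92 and 5.71 CPM after naphthalene and 11.2, 8.61 and 12.6 CPM without it, a change of -0.77 ± 0.45 that did not pass. Of 20 DNA replication genes none was called, 19 had a log2 change below 0 and the median was -0.40.

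Many interferon-stimulated genes fell after naphthalene. Of 28 genes of the type I interferon response, 13 fell and none rose, 27 had a log2 change below 0, and the median was -0.91. Rsad2, the antiviral enzyme viperin, had 2.71, 2.91 and 2.54 CPM in naphthalene lungs, against 13.6, 12.4 and 14.2 CPM in untreated lungs (log2 change -2.30 ± 0.39, adjusted p = 0.000319). Isg15, a ubiquitin-like modifier, had 5.10, 5.71 and 6.60 CPM after naphthalene, against 18.4, 19.6 and 14.2 CPM without it (log2 change -1.58 ± 0.28, adjusted p = 0.000599). In both genes every naphthalene library was below every untreated library, and the replicates of a group were close. Ifi27l2a, Oas1a, Oasl2, Dhx58, Rtp4 and Xaf1 fell by between 0.90 ± 0.19 (Xaf1) and 1.90 ± 0.35 (Ifi27l2a) on the log2 scale. Ifi44 lost its call without untreated replicate 3 (adjusted p = 0.0537), Oas2 without naphthalene replicate 1 or 2 or untreated replicate 3 (up to 0.0958), Usp18 without replicate 1 or 3 of either group (up to 0.0806), and Irf7 in all 6 fits (up to 0.136). The number called was 9 against the k libraries and 8 against the n library.

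The promoters of Rsad2 and Isg15 are shown as 2 members with large decreases whose windows hold the core of the interferon-stimulated response element, a pair of GAAA runs with any 2 bases between them, on either strand. They are from RefSeq, build GRCm38.p6, minus strand, chr12:26456403-26456702 for Rsad2 and chr4:156200769-156201068 for Isg15, each from 250 bases before to 50 bases after the start of the gene. Capitals mark the matches, 1 in Rsad2 and 3 that overlap in Isg15.
Rsad2: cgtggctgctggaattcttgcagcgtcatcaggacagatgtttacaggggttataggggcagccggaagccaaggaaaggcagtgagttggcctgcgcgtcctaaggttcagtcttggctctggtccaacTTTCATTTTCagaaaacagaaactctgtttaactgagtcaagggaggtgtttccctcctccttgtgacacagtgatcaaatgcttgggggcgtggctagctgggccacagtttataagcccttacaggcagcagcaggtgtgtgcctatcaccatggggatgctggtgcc
Isg15: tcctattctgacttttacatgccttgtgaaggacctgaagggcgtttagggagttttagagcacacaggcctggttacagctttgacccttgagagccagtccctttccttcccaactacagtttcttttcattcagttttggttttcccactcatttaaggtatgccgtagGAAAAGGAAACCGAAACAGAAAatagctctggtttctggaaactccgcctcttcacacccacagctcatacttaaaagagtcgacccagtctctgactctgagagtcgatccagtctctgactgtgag
Of the 28 genes, 18 had a window and 11 of these held a match, which was 3 of the 7 called lower and 8 of the 11 not called. Among all 27025 windows 3.49% held one. The share was no higher among the called genes than among the others of the list, and no test was made.

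Interferon gamma targets and antigen presentation genes had a median log2 change of -0.68, and all 22 lay below 0, but 1 was called. This was Gbp4, a guanylate-binding protein, with 7.76, 11.7 and 6.60 CPM in naphthalene lungs, against 32, 25.2 and 54.5 CPM in untreated lungs (log2 change -2.10 ± 0.39, adjusted p = 0.00101). Genes of natural killer (NK) and cytotoxic cells had a median of -1.60 over 15 tested members at low levels. The granzyme Gzma had 0.798, 1.21 and 1.21 CPM after naphthalene, against 3.31, 3.49 and 3.27 CPM without it (log2 change -1.65 ± 0.45), and the factor Eomes fell by 1.74 ± 0.51. Gzma lost its call in all 6 fits without a library (adjusted p up to 0.178) and Eomes in every fit but the one without untreated replicate 3 (up to 0.23). Of 15 B cell genes all lay below 0 and 1 was called, the factor Spib (log2 change -1.16 ± 0.31), which lost its call without naphthalene replicate 1 or 2 or untreated replicate 2 (up to 0.451). None of 18 T cell genes or of 15 tested genes of group 2 innate lymphoid cells was called. Rora, a member of the innate lymphoid list, had 51.3, 53.4 and 38.1 CPM in naphthalene lungs and 32.1, 33.6 and 43.2 CPM in untreated lungs, which overlap. Il7r had 8.13, 8.95 and 8.25 CPM in naphthalene lungs and 2.53, 1.75 and 10.6 CPM in untreated lungs, where it differed between letters k and n, and the groups overlapped (log2 change 0.76 ± 0.42).

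Several neutrophil genes rose, by sizes that depended on the untreated library used. Of 16 tested genes 5 rose, all 16 had a log2 change above 0, and the median was 1.16. Cd177, a surface glycoprotein of neutrophils, had 64.9, 71.6 and 40.9 CPM in naphthalene lungs, against 2.68, 5.06 and 2.39 CPM in untreated lungs (log2 change 4.14 ± 0.41, adjusted p = 9.03e-08). Ltf, the granule protein lactoferrin, rose by 1.91 ± 0.42, Retnlg by 2.39 ± 0.57, Il1r2, a decoy receptor for IL-1, by 2.29 ± 0.57 and Mmp8, a collagenase, by 1.95 ± 0.48. The abundant alarmin S100a9 had 145, 168 and 201 CPM after naphthalene and 107, 131 and 16.7 CPM without it, and was not called (log2 change 1.01 ± 0.55, adjusted p = 0.464). The median of the list was 0.68 against the k libraries and 2.80 against the n library, with 2 and 7 members called. Retnlg lost its call without untreated replicate 1 or 3 (up to 0.0666), Il1r2 without untreated replicate 3 or naphthalene replicate 2 (up to 0.0857), and Mmp8 without replicate 3 of either group (up to 0.0882).

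Among macrophage genes the largest change was in Chil3, a chitinase-like protein of alveolar macrophages, which had 408, 333 and 250 CPM in naphthalene lungs, against 44.6, 52.6 and 78.1 CPM in untreated lungs (log2 change 2.50 ± 0.36, adjusted p = 3.12e-05). Of 15 alveolar macrophage genes 2 rose, Chil3 and the lipid carrier Fabp4 (1.17 ± 0.26), and the integrin Itgax fell (-0.74 ± 0.21), a call lost in all 6 fits without a library (adjusted p up to 0.141). The defining gene Marco, a scavenger receptor, had a log2 change of 0.43 ± 0.33 and did not pass. Among 14 genes of alternative activation Chil3 and Spp1 rose, and among 14 tested genes of monocytes and interstitial macrophages none was called. Spp1, which encodes osteopontin, had 41.2, 35 and 24.3 CPM after naphthalene, against 4.48, 3.78 and 14.5 CPM without it. It lost its call without untreated replicate 1 or 2 (up to 0.0743).

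Acute phase and chemokine genes gave single large changes. Of 21 tested genes of the IL-6 and STAT3 acute phase 4 rose and none fell, with a median log2 change of 0.50. Serpina3n, a protease inhibitor, had 363, 243 and 453 CPM in naphthalene lungs, against 77.0, 105 and 37.4 CPM in untreated lungs (log2 change 2.27 ± 0.37, adjusted p = 0.000239). Orm1, an orosomucoid, rose by 4.97 ± 0.61, Lrg1, a glycoprotein of plasma, by 2.03 ± 0.49 and the cytokine Lif by 1.04 ± 0.26. Lrg1 lost its call without untreated replicate 3 (adjusted p = 0.0701) and Lif without untreated replicate 1 or 2 (up to 0.0755). Cxcl17, a mucosal chemokine-like protein, was the 1 gene called of 13 tested CXC chemokines, with 83.0, 68.9 and 62.4 CPM after naphthalene, against 5.36, 7.10 and 2.64 CPM without it (log2 change 3.83 ± 0.43, adjusted p = 7.47e-07). Of 18 CC chemokines Ccl20 rose, by 3.05 ± 0.77 at under 1 CPM, and lost its call without untreated replicate 1 or 3 or naphthalene replicate 2 (up to 0.11). Of 14 tested genes of the IL-1 family and alarmins Il1r2 was called, and of 16 tested complement genes C4b rose, by 1.21 ± 0.25.

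Several red cell genes fell. Of 15 genes 5 fell and 14 had a log2 change below 0, with a median of -1.59. Slc4a1, the anion exchanger of the red cell membrane, had 1.38, 1.76 and 2.03 CPM after naphthalene, against 17.5, 33.4 and 13.1 CPM without it. The groups did not overlap, with a log2 change of -3.63 ± 0.51 (adjusted p = 3.08e-05). Tspo2, a sterol-binding protein of erythroid cells, fell by 2.36 ± 0.44, the globin chaperone Ahsp by 2.85 ± 0.79 and the globin Hbb-bt by 1.59 ± 0.46. Ahsp lost its call in every fit but the one without untreated replicate 3 (adjusted p up to 0.154) and Hbb-bt in all 6 (up to 0.171). Haemoglobin transcripts together took 0.236%, 0.175% and 0.189% of the counts of naphthalene libraries, against 0.394%, 0.433% and 0.488% in untreated libraries (two-sided exact permutation test, p = 0.1, the smallest possible).

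Alveolar epithelial genes gave no call. None of 15 alveolar type 2 genes, 15 alveolar type 1 genes or 16 Notch pathway genes was called, with medians of 0.20, 0.02 and 0.06. The type 2 median was -0.09 against the k libraries and 1.09 against the n library. Of 16 endothelial genes Apln, the peptide apelin of endothelial tip cells, fell, with 36.1, 30.9 and 62.4 CPM in naphthalene lungs, against 157, 210 and 91.0 CPM in untreated lungs (log2 change -1.82 ± 0.34, adjusted p = 0.000869). Msln, which encodes mesothelin, had 154, 166 and 223 CPM after naphthalene, against 54.1, 74.0 and 30.7 CPM without it (log2 change 1.77 ± 0.33, adjusted p = 0.000799), while the other mesothelial markers Upk3b and Wt1 were not called, with changes of -0.33 ± 0.43 and 0.12 ± 0.37. Of 23 collagen and matrix genes 3 rose and 2 fell, with a median of -0.32. Lox, the collagen cross-linking enzyme, had 343, 252 and 257 CPM in naphthalene lungs, against 121, 124 and 128 CPM in untreated lungs (log2 change 1.19 ± 0.35), Dcn rose by 0.71 ± 0.19, and Tnc and Col6a3 fell by 1.39 ± 0.36 and 0.85 ± 0.22. Lox lost its call in all 6 fits without a library (adjusted p up to 0.214), Dcn without naphthalene replicate 1 or untreated replicate 2 or 3 (up to 0.259), Tnc in every fit but the one without untreated replicate 3 (up to 0.166) and Col6a3 without replicate 1 of either group or naphthalene replicate 2 (up to 0.181). No gene of this list was called against the n library, and 6 members differed between letters k and n.

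Other groups held 1 to 3 calls. Of 25 FGF and WNT signal genes Sfrp1, a secreted WNT inhibitor, rose by 1.51 ± 0.28 and the ligand Wnt7b by 1.40 ± 0.36, the second call lost without replicate 3 of either group (adjusted p up to 0.109). Of 13 smooth muscle genes Hhip, a decoy receptor for hedgehog ligands, fell by 0.83 ± 0.21, a call lost without replicate 1 or 2 of either group (up to 0.149). Of 17 tested matrix proteases and inhibitors Timp1 (1.59 ± 0.33) and Mmp8 rose, the call of Timp1 being lost without naphthalene replicate 3 (0.0576). Among 24 genes of fatty acid and sterol synthesis 3 rose, Sqle (0.85 ± 0.23) and Me1 among them. Sqle lost its call without untreated replicate 2 or 3 or naphthalene replicate 1 or 3 (up to 0.155). Of the 4 tested thymus genes Rag1 and Cd1d1 fell, by 3.77 ± 0.94 and 0.69 ± 0.19. Rag2, Dntt and Ptcra, which also mark the thymus, had 2, 1 and 1 reads in naphthalene libraries and 7, 3 and 0 in untreated libraries, and the part of thymus tissue in the change of Rag1 was not tested. Rag1 lost its call without naphthalene replicate 1 or 2 (up to 0.107) and Cd1d1 in every fit but the one without naphthalene replicate 3 (up to 0.175). Among 10 dendritic cell genes Itgax fell and among 9 tested adipocyte genes Fabp4 rose, both named above. No gene was called in the lists of circadian clock genes (18), mitochondrially encoded respiratory chain genes (13), IGF and imprinted growth genes (15), eosinophils, mast cells and basophils (14 tested), heart muscle (10) or skeletal muscle (5 tested).

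**Figure D4:**
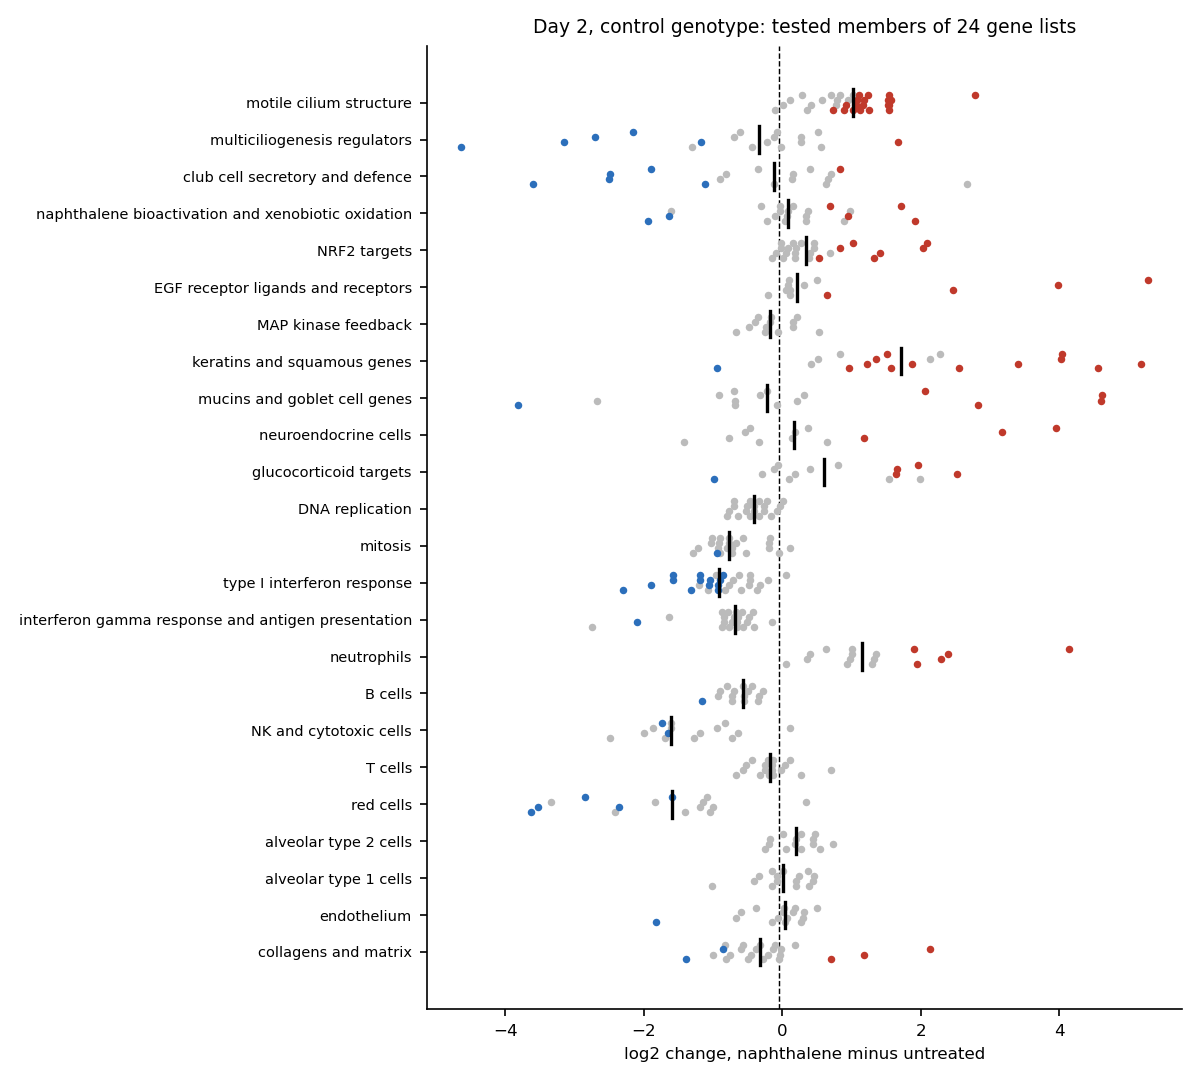
Log2 change, naphthalene minus untreated, of the tested members of 24 gene lists in control mice at day 2. Red and blue points passed the test as higher and lower, grey points did not, black bars are list medians and the dashed line is the median of all genes tested (-0.04). Cilium structure (1.03) and keratins (1.72) lie to the right, interferon response (-0.91) and red cells (-1.59) to the left.

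The comparison with KO mice addresses whether the response differed where RORα is deleted in Il7r-lineage cells. No gene differed between the naphthalene effects of KO and control mice at an adjusted p of 0.05 in edgeR's test (0% of those tested), and 371 passed an unadjusted p of 0.05. That is fewer than the share of 0.05 of the 20606 genes tested that would pass if no effect differed. So low a count is not evidence that the effects were equal, and its cause was not tested. The letters k and n were not a term of the fit. DESeq2 and limma-voom also called 0, and edgeR's test with no filter on low counts called 12. Among the 774 genes called in control mice, 769 had the same sign in KO mice and 398 were also called there, of 565 calls among the 20606 genes tested in KO mice. The share of same signs over all genes tested was not counted. KO libraries carry the same letters as those of control mice, a with naphthalene and k or n without it. What the genotypes share therefore cannot be split between treatment and letter. Foxn4 averaged 0.0422 ± 0.0366 CPM in naphthalene KO lungs and 0.62 ± 0.386 CPM in untreated KO lungs (SD, n = 3 each), with a log2 effect of -3.75 ± 0.73 in KO mice beside -3.15 ± 0.54 in control mice. Syt8, a synaptotagmin, changed by 3.84 ± 0.47 in KO mice and 4.18 ± 0.44 in control mice, and Isg15 by -1.41 ± 0.28 and -1.58 ± 0.28. A difference of effects below the spread between libraries would not be seen here: the KO minus control difference was 0.07 ± 0.52 for Foxj1 and -0.34 ± 0.37 for Scgb1a1.

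Day 5 was compared with day 2 to follow the response over time, each day against untreated lungs of its own day label. In control mice of day 5 the naphthalene libraries carry the letter b and the untreated libraries f or o. Treatment and letter cannot be told apart there either. The naphthalene effect differed for 41 genes (0.199% of those tested), 26 higher (0.126%) and 15 lower (0.0728%) at day 5, and 28 of them were also called at day 2. The libraries of day 2 enter both the call and the difference, so that a smaller effect at day 5 is nearly fixed by the choice of these 28. The effect at day 5 was of opposite sign for 25 of them, which the same choice also favours. Some of these effects were within about their standard error of 0, such as -0.02 ± 0.44 for Hsf2bp and 0.34 ± 0.34 for Chad, and others, given below, were not. Regulators of multiciliogenesis led the increases. Foxn4 averaged 2.29 ± 0.359 CPM in naphthalene lungs and 0.473 ± 0.21 CPM in untreated lungs of day 5 (SD, n = 3 each), a log2 effect of 2.26 ± 0.44, against -3.15 ± 0.54 at day 2. Mcidas changed by 2.39 ± 0.46 at day 5 and -2.70 ± 0.55 at day 2, Cdc20b by 3.01 ± 0.55 and -4.64 ± 0.92, and Ccna1 by 1.56 ± 0.35 and -2.15 ± 0.42. The difference of effects was 5.41 ± 0.70 for Foxn4 (adjusted p = 9.4e-05), 5.10 ± 0.71 for Mcidas (0.00025), 7.65 ± 1.05 for Cdc20b (0.000212) and 3.71 ± 0.55 for Ccna1 (0.000525). Syt8 led the decreases, with an effect of -1.03 ± 0.51 at day 5 and a difference of -5.21 ± 0.67 (9.4e-05). These 5 differences passed in each of the 12 fits that left out 1 library. The differences of Lonrf2, Chad, Scgb3a2, Apln, Gm30660, Clca3a1, Hsf2bp and Areg each lost their call in at least 1 of them. The number of differences was between 5, without untreated replicate 1 of day 2, and 18 in 9 of the 12 fits, 34 without naphthalene replicate 3 of day 2, 193 without untreated replicate 3 of day 5, and 534 without untreated replicate 3 of day 2.

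The effect on Foxj1 was 1.68 ± 0.38 at day 2, 1.20 ± 0.37 at day 5 and 0.70 ± 0.37 at day 7, and it did not pass at day 5 (adjusted p = 0.0709) or day 7 (adjusted p = 1). The median of the cilium list was 1.03 at day 2, 0.59 at day 5 and 0.57 at day 7. That of the regulator list was -0.33 at day 2, 0.31 at day 5, when 5 members were called higher, and 0.20 at day 7.

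At day 7, the naphthalene effect differed from that of day 2 for 52 genes (0.252%), 15 higher (0.0728%) and 37 lower (0.18%), and 51 of them were called at day 2, whose libraries again enter both. At day 7, 8 genes were called among all genes tested, and all 8 were among the 774 called at day 2. Of the 774, 581 had the same sign at day 7 as at day 2. At day 5, 492 genes were called, 108 of them among the 774, and 626 of the 774 had the same sign as at day 2. So small an overlap at day 7 thus goes with few calls at that day. The share of same signs over all genes tested was not counted. Naphthalene and untreated libraries of control mice at day 7 all carry the letter p, unlike those of day 2. A change of the effect between days therefore cannot be told apart from a difference of letters. Scgb1a1 averaged 4970 ± 1680 CPM in naphthalene lungs and 15000 ± 2900 CPM in untreated lungs of day 7 (SD, n = 3 each), and its effect was -3.60 ± 0.29 at day 2, -2.08 ± 0.27 at day 5 and -1.59 ± 0.27 at day 7. Scgb3a2 had effects of -1.89 ± 0.36 at day 2, 0.80 ± 0.35 at day 5 and 0.75 ± 0.35 at day 7. The NRF2 target Gpx2 had an effect of 0.02 ± 0.28 at day 7, Nrg1 of 0.14 ± 0.29, Fkbp5 of -0.38 ± 0.45, Sprr1a of 0.00 ± 0.46 and Cldn4 of 0.34 ± 0.35, each having risen at day 2. The effect on Cfap52 was 0.76 ± 0.27 at day 7 and did not pass (adjusted p = 1), beside 2.78 ± 0.28 at day 2. None of the day 7 differences named here passed in all 12 fits without a library, and the number of differences was 0 without untreated replicate 1 or naphthalene replicate 2 of day 2 and between 2 and 39 without any other library.

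**Figure D5:**
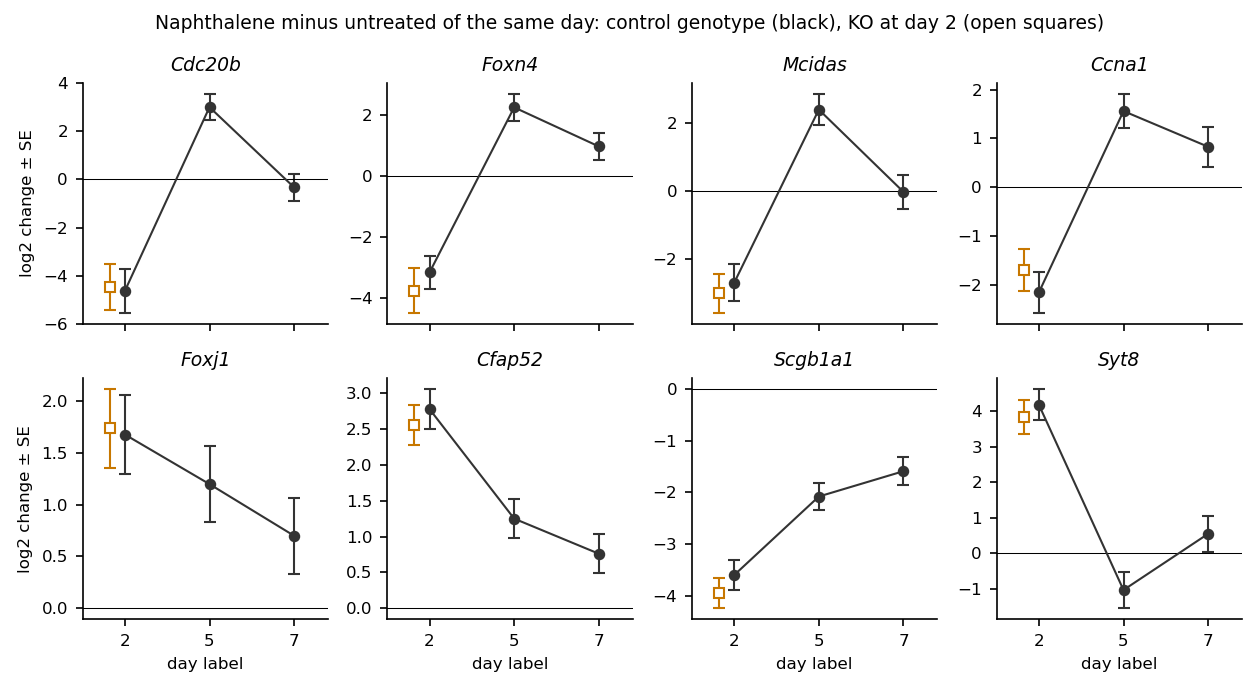
Log2 naphthalene effect ± standard error at the day labels 2, 5 and 7 in control mice (black) and at day 2 in KO mice (open squares) for 8 genes. Cdc20b, Foxn4, Mcidas and Ccna1 lie below 0 at day 2 and above 0 at day 5, Foxj1 and Cfap52 stay above 0, and Scgb1a1 stays below 0 at all days.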

How the data were processed

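RNA of homogenised whole lungs was extracted with Trizol and made into libraries with a Watchmaker Genomics mRNA kit, per the labels. The authors deposited 1 table of raw counts per Ensembl gene for 35 libraries in 12 groups; no normalization was applied to the deposited counts, as their whole numbers and unequal totals show. The submitters' processing notes name GRCm39 and DESeq2 with no role. What aligned and counted the reads, and with which annotation, was not given in the sources used here.

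Genes were filtered with filterByExpr and libraries scaled by TMM. CPM use these factors. Effects are contrasts in 1 robust fit of 12 group means with edgeR 4.0.16 (limma 3.58.1, R 4.3.3), which shares the spread over all groups, with a two-sided quasi-likelihood test and Benjamini-Hochberg adjustment over all 20606 genes. DESeq2 1.42.0, limma-voom, other factors, no filter, other fits, a replicate block and leaving out each library were alternatives. Ratios over 3 or fewer reads have exact binomial intervals. Promoter windows came from RefSeq (GRCm38.p6), matched by symbol.

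The groups compared, the 56 gene lists (911 genes, 863 tested) and the alternatives were chosen with earlier results of these data known. Lists are described by counts and medians, without a test. The text draws its names from the called genes with a usual symbol, no overlap between groups and at least 5 CPM in 1 group (15 per direction by size of change), called list members, for each list the smallest p per direction and the 2 most abundant members, members whose lack of a call is the point, Rora, Il7r, and in each comparison of effects the 5 largest differences per direction among genes called at day 2. Some genes picked by the rule are left out of the text.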

Additional observations from a re-analysis of the deposited data

Results flagged for a closer look

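The naphthalene effect in control mice was tested for differences between days, and the values below are log2 effects at the later day minus those at day 2, with standard errors, each past an adjusted p of 0.05 in edgeR's quasi-likelihood test. For day 5 the 5 largest increases among genes also called at day 2 were 7.65 ± 1.05 for Cdc20b, 5.41 ± 0.70 for Foxn4, 5.10 ± 0.71 for Mcidas, 4.37 ± 0.83 for Lonrf2 and 3.71 ± 0.55 for Ccna1. The 5 largest decreases were -5.21 ± 0.67 for Syt8, -3.48 ± 0.71 for the predicted gene Gm30660, -3.37 ± 0.61 for Clca3a1, -2.73 ± 0.60 for Hsf2bp and -2.59 ± 0.54 for Areg. The differences of other genes named in the report were 2.84 ± 0.50 for Chad, 2.69 ± 0.50 for Scgb3a2 and 2.25 ± 0.47 for Apln.

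For day 7 the largest increases over day 2 reported here were 4.13 ± 0.70 for Foxn4, 3.67 ± 0.73 for Cyp4f15, 3.06 ± 0.65 for Slc4a1 and 2.99 ± 0.58 for Ccna1. The largest decreases were -5.04 ± 1.07 for Psapl1, -4.59 ± 0.96 for Doc2b, -4.57 ± 1.02 for Gldc, -4.03 ± 0.81 for Sprr1a and -3.63 ± 0.68 for Syt8. Among genes of club cell secretion the differences were 2.89 ± 0.50 for Chad, 2.64 ± 0.50 for Scgb3a2 and 2.01 ± 0.37 for Scgb1a1. The other differences were -2.90 ± 0.65 for Fkbp5, -2.63 ± 0.56 for Areg, -2.33 ± 0.41 for Nrg1, -2.23 ± 0.50 for Cldn4, -2.08 ± 0.40 for Gpx2 and -2.03 ± 0.38 for Cfap52. Of the 13 day 5 differences 5 passed in every fit that left out 1 library, and of the 18 day 7 differences none did.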

How the results depend on the processing

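For the naphthalene effect at day 2 in control mice, 774 genes were called, and other scaling factors, DESeq2, limma-voom, no filter on low counts or a fit of the 6 libraries alone gave between 614 and 1131. The count was 343 against untreated replicate 3 alone (letter n), a choice made after seeing the data, and 2021 against the mean of the 3 untreated groups of control mice. Leaving out 1 library gave 468 to 774. Of the 148 called genes named in the text, 89 were called in every such fit and 59 were not. Of the same 148, 84 lost their call against untreated replicate 3, 87 in the fit of the 6 libraries alone with a replicate block, 31 against untreated replicates 1 and 2, 27 in the fit of the 6 libraries alone and 9 or fewer under each other alternative; none changed sign. Among uncalled genes, Upk3b (-0.33) lay between -0.68 and 0.10 where 1 library was left out, with the change of sign without untreated replicate 2, and was 0.84 against untreated replicate 3, and Il7r (0.76) was -0.33 against untreated replicate 3. For these and for the counts that moved, the cause was not tested. Same-numbered libraries showed no clear joint deviation (r = 0.07, -0.22 and -0.20). With 3 libraries per group these values cannot decide whether the numbers pair them. A replicate block gave 800 calls in the fit of all groups and 174 in the fit of the 6 libraries alone. KO minus control gave 0 calls except 12 with no filter, and 0 with the replicate block. Day 5 minus day 2 gave 41 calls, against 650 with no filter, 227 with DESeq2, 24 with limma-voom, 25 with the compared groups alone, 37 with the replicate block and 5 to 534 without 1 library. Day 7 minus day 2 gave 52, against 297 with no filter, 132 with DESeq2, 102 with the compared groups alone, 67 with the replicate block and 0 to 39 without 1 library. Depth limits genes of low level, since 1 read corresponds to 0.049 to 0.063 CPM.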
